A study of Homo sapiens with 12 samples.

Results

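The genes described here encode the enzymes that polymerise, sulfate and trim heparan sulfate, namely the polymerase subunits EXT1 and EXT2, the N-deacetylase/N-sulfotransferases NDST1 and NDST2, the epimerase GLCE, the 2-O-sulfotransferase HS2ST1, the 6-O-sulfotransferases HS6ST1 and HS6ST2, and the extracellular sulfatases SULF1 and SULF2. They were chosen by name, 10 of the 56269 genes in the count table, and all 10 were found in it. RNA-seq was performed on HEYA8 cells, an ovarian cancer line with low endogenous betaglycan, grown at steady state in regular medium with 10% serum. Betaglycan (BG, gene TGFBR3) is a TGF-β co-receptor whose ectodomain carries glycosaminoglycan (GAG) chains on serines. The 12 libraries formed 4 groups of 3. The ∆GAG-BG cells expressed BG with both attachment serines exchanged for alanine, the S534A (CS-BG) and S545A (HS-BG) cells expressed BG with 1 serine exchanged, and control vector cells received no BG. Constructs were delivered by pHIV-dTomato lentivirus on top of the endogenous gene, and each group was, as far as the sources say, 1 stable population sorted on dTomato, so a genotype and its population cannot be told apart. Full-length BG was not analysed here.

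Heparan sulfate is built in the Golgi on a linker attached to serine of a core protein. EXT1 and EXT2 act together as the polymerase that adds alternating glucuronic acid and N-acetylglucosamine. NDST enzymes replace acetyl groups with sulfate, GLCE turns glucuronic into iduronic acid, and 2-O- and 6-O-sulfotransferases then add further sulfates, the pattern of which sets which growth factors the chain can hold. SULF1 and SULF2 act outside the cell, where they remove 6-O-sulfates from finished chains. The comparisons ask whether cells carrying BG without GAG chains, or with a single attachment site, differed in the RNA of this machinery.

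Total counts ranged from 16410001 to 29504297 per library, so that 3 counts stood for 0.1 to 0.182 CPM (counts per 1000000 counts, scaled by TMM). The libraries had features that the groups do not explain. TGFBR3 was at 413 to 476 CPM in the S534A and 520 to 574 CPM in the S545A libraries, but at 260, 20.3 and 21.4 CPM in the libraries labelled ∆GAG-BG and at 15.9, 259 and 259 CPM in those labelled control vector, which goes against the labels of replicates 2 and 3 of both groups. Within the control vector, S545A and ∆GAG-BG groups, replicates 2 and 3 differed by little more than counting noise (chi-square per degree of freedom 1.4 to 1.99, against 17.3 to 77.9 for all other pairs within a group). The endoplasmic reticulum chaperone HSPA5 was at 11860 CPM in ∆GAG-BG replicate 1 and at 287 CPM in S534A replicate 2, against 1228 to 3906 CPM in the other 10 libraries. The third S545A library carries S545S in its title and S545A as its genotype. Keratins KRT7, KRT8 and KRT18 and the Müllerian factor PAX8 were at 193 CPM or more in every library, whereas of the other 5 genes in the same carcinoma list WT1 (3.42 to 8.38 CPM), EPCAM (0.367 to 1.77 CPM) and KRT19 (0.141 to 0.789 CPM) were low and MUC16 and CDH1 had no count in any. The mesenchymal genes VIM (2343 to 3132 CPM), CDH2 (115 to 150 CPM) and ZEB1 (94.9 to 144 CPM) were present in every library. Of the fibroblast genes, COL1A1 was at 7.98 to 17.7 CPM, PDGFRB at 0.701 to 5.04 CPM and DCN at 0 CPM. Among the endothelial genes, CDH5 was at 169 to 431 CPM, VWF at 2.64 to 14.9 CPM and PECAM1 at 0.205 to 0.768 CPM. The leukocyte genes PTPRC, CD68 and CD3E had at most 3 counts.

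Across the 12 libraries, EXT1, NDST1 and EXT2 had the most RNA per gene length, and GLCE and HS6ST1 the least among the expressed genes. In RPKM (CPM divided by the table's exon length in kilobases), EXT1 had a median of 43.9 with a range of 31.9 to 47.2. NDST1 followed with 24.3 (20.3 to 31.6) and EXT2 with 20.3 (19.2 to 28.5). These levels divided the genes into steps: EXT1 lay above NDST1 in all 12 libraries without overlap of their ranges, while NDST1 and EXT2 overlapped. SULF2 had a median of 6.94 RPKM (5.95 to 9.21), HS2ST1 6.86 (5.96 to 8.15) and HS6ST2 4.44 (4.01 to 6.49). SULF2 and HS2ST1 overlapped, as did HS2ST1 and HS6ST2, although HS2ST1 was the higher of the latter pair in each of the 12 libraries. GLCE stood at 3.38 RPKM (2.97 to 3.86), below every value of HS6ST2, and HS6ST1 at 2.18 (1.64 to 3.59), overlapping GLCE.

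**Figure D1:**
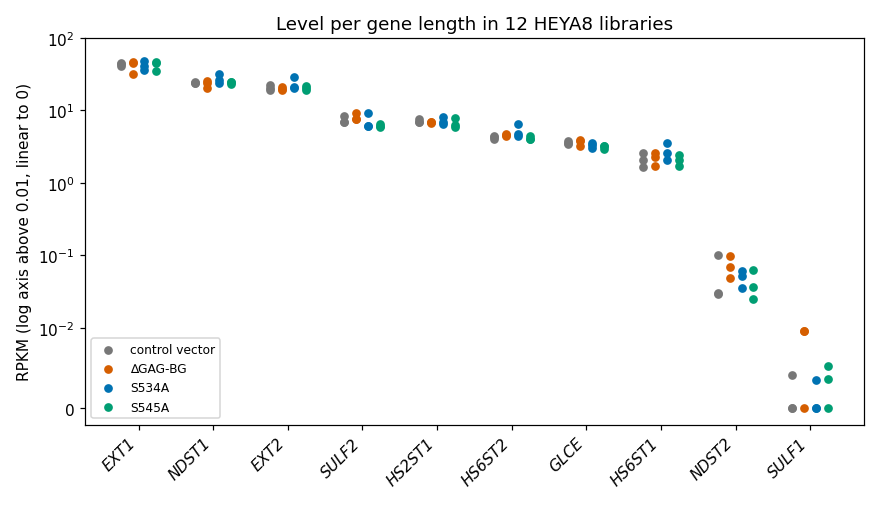
Levels of the 10 heparan sulfate enzyme genes in RPKM (y axis, logarithmic above 0.01 and linear to 0), with a point for each of the 12 libraries coloured by group and genes ordered by their median. EXT1 is highest with a median of 43.9, 8 genes lie at 1.64 or above in every library, and NDST2 and SULF1 lie at 0.101 or below.

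Of the sulfatases, SULF2 was the expressed member. SULF1 had 0 to 2 counts in any library, at most 0.0907 CPM, which is below the 3-count floor, so its RNA was not detectable at this depth. NDST2 had 3 to 12 counts per library, 0.116 to 0.47 CPM. Its level could not be read from the table, since 82.9% of its exon length (3857 of 4654 bases) is shared on the same strand with RP11-574K11.31, listed at 0 to 2 counts, and reads in shared exons are by default assigned to neither gene. The setting used is not given in the sources used here. HS2ST1 shares 9.69% of its exon length with a same-strand neighbour at 0 counts, and SULF2 shares 96 bases with NCOA3 on the opposite strand. NDST2 and SULF1 did not pass the filter on low counts, so 8 of the 10 genes were tested.

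Related enzymes stood in the same order in all 12 libraries. The ratio of EXT1 to EXT2 in RPKM had a median of 2.23 and ranged from 1.44 in S534A replicate 2 to 2.43. The ratio of HS6ST2 to HS6ST1 was 1.97 at the median (1.69 to 2.6), so the X-linked HS6ST2 was the more abundant 6-O-sulfotransferase in all 12 libraries. SULF2, which removes 6-O-sulfates, stood at 1.6 times HS6ST2 alone at the median (1.27 to 2.07). That ratio leaves out HS6ST1, so it does not set the sulfatase against both 6-O-sulfotransferases.

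HS6ST1 (chr2:128236716-128318577, minus strand) and HS6ST2 (chrX:132626016-132961395, minus strand; both GRCh38) encode enzymes of the same reaction, and their start regions are shown because the genes had their highest level in the same library. That library, S534A replicate 2, was also the highest for EXT2, NDST1 and SULF2 and for 26.1% of all genes tested. The shared peak is thus not particular to this pair. The RefSeq promoter table (GRCh38.p14) held 8 of the 10 genes. The 250 bases before each start follow, from chr2:128318869-128319118 and chrX:132961371-132961620, 5′ to 3′ on the gene's strand, with GGGCGG, the core letters of a GC box, in capitals where found on either strand. The RefSeq starts differ from those of the count table, by 291 bases upstream for HS6ST1, and by 25 bases downstream for HS6ST2, whose last 25 bases shown lie inside the table's gene.
HS6ST1: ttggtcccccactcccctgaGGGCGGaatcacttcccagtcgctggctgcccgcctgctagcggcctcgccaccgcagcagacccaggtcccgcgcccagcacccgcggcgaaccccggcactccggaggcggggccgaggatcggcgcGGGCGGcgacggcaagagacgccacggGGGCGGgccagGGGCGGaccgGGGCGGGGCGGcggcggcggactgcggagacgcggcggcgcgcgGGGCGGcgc
HS6ST2: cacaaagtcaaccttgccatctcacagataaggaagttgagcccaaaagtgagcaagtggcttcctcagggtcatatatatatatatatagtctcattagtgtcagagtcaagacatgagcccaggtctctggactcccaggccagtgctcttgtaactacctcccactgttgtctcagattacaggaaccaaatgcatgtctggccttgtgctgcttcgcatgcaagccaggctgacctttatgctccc
The HS6ST1 window held 7 matches, a pair of which overlap, and 80.4% G or C. The HS6ST2 window held 0 matches and 48% G or C. Of 35116 promoter windows of this length, 42.6% held the motif at least 1 time and 1.12% held 7 or more, with a median of 58% G or C.

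No member passed an adjusted p of 0.05 in any of the 6 comparisons of the 4 groups (edgeR quasi-likelihood test, Benjamini-Hochberg adjustment over 16069 genes). In the same tests 0% of all genes passed, and in a test of any difference among the 4 groups 0.00622% did, which was 1 gene and not a member. The smallest adjusted p of a member was 0.702, and the largest difference was -0.43 on the log2 scale, for HS6ST1 in S545A against S534A (95% interval -0.94 to 0.075, unadjusted p = 0.0883), which was -0.19 without S534A replicate 2. In the 4-group test, unadjusted p-values ran from 0.0762 for HS6ST2 to 0.984 for EXT1, so that 0 members were under 0.05, beside 1.55% of all genes. For each of the 8 genes, the ratio between the highest and lowest replicate of some group exceeded the ratio between the highest and lowest group mean, as it did for 98.1% of all genes tested. The labels do not say that replicates came from separate cultures, so p-values measure the spread between these libraries. Comparisons with a common group share its 3 libraries.

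At an unadjusted p of 0.05, a threshold without correction for multiple tests, 1 member was lower in S545A than in ∆GAG-BG (SULF2; 1.1% of all genes passed, 0.604% in the lower direction). HS6ST2 was the 1 member past it in S545A against S534A (4.78% of all genes, 2.68% lower) and in S534A against control vector (3.45%, 2.19% higher). No member passed it in ∆GAG-BG against control vector (0.871% of all genes), S534A against ∆GAG-BG (2.99%) or S545A against control vector (1.05%).

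**Figure D2:**
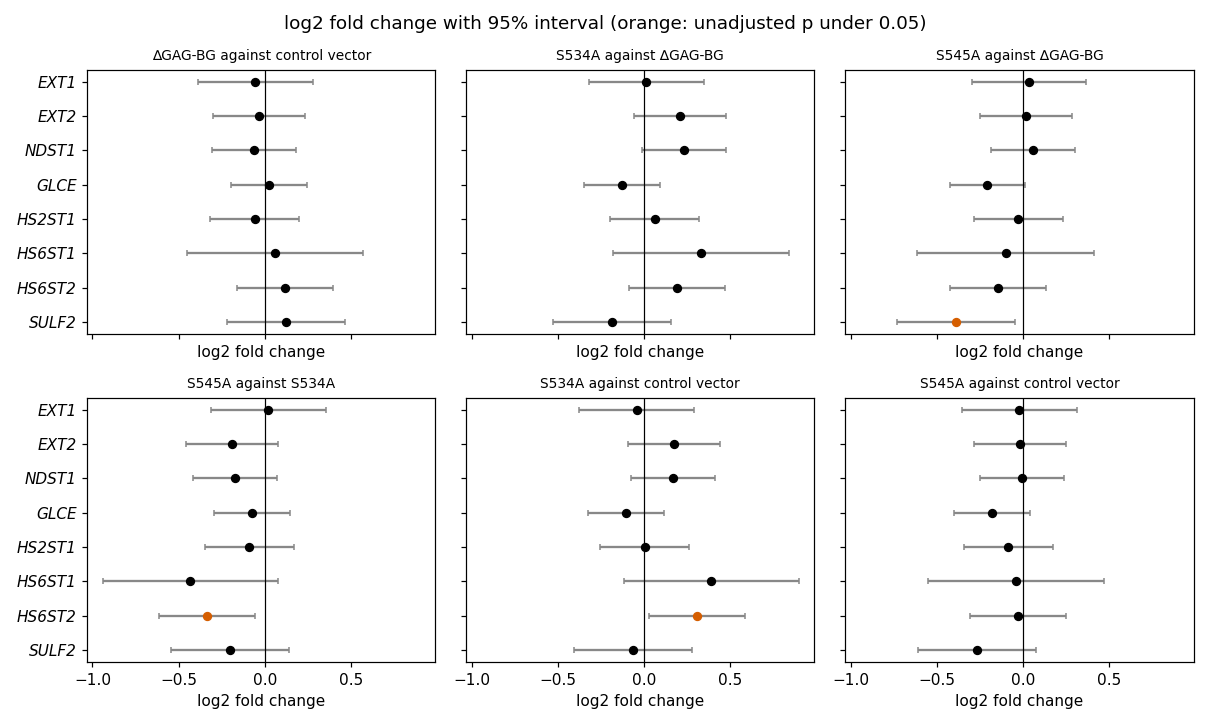
Fitted log2 fold change (x axis) of the 8 tested genes in each of the 6 comparisons, with 95% intervals as bars. The 3 orange points, SULF2 at -0.39 in S545A against ∆GAG-BG and HS6ST2 at -0.34 and 0.31 in the comparisons of S534A with S545A and control vector, have an unadjusted p under 0.05, and every adjusted p is 0.702 or above.

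SULF2 (chr20:47656348-47786616, minus strand, GRCh38), the extracellular 6-O-endosulfatase, had similar low levels in 5 of the 6 libraries with a single-site mutant. In bulk RNA, fewer expressing cells and less RNA per cell cannot be told apart. SULF2 was at 39.6, 40.8 and 43.0 CPM in the S545A libraries and at 40.0, 61.3 and 40.3 CPM in the S534A libraries. It was at 60.7, 50.4 and 50.5 CPM in the ∆GAG-BG and 56.1, 45.7 and 46.7 CPM in the control vector libraries. The S545A values lay below all ∆GAG-BG and all control vector values, and S534A replicate 2, the highest of the 12, was the exception among the single-site libraries. The mean was 41.1 ± 1.71 CPM in S545A and 53.9 ± 5.95 CPM in ∆GAG-BG (SD, n = 3). The log2 difference was -0.39 (SE 0.158, 95% interval -0.73 to -0.045, unadjusted p = 0.0297, adjusted p = 1 by edgeR), and the two-sided exact permutation p was 0.1, the smallest that 3 against 3 libraries allow. Against control vector, where SULF2 averaged 49.5 ± 5.73 CPM, it was -0.27 (SE 0.157, unadjusted p = 0.116, adjusted p = 1 by edgeR).

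The SULF2 values varied with the libraries used. Without ∆GAG-BG replicate 1, whose HSPA5 stood apart, the S545A difference from ∆GAG-BG was -0.29 (unadjusted p = 0.12 by edgeR), while without S545A replicate 1 or 2 it stayed at -0.36 and -0.38 with fewer libraries (unadjusted p = 0.08 and unadjusted p = 0.0681). With all libraries, S534A stood at -0.19 against ∆GAG-BG (unadjusted p = 0.256) and -0.066 against control vector (unadjusted p = 0.681, both by edgeR). S534A replicate 2 had the highest SULF2 value of any library. Without it S534A was at -0.42 against ∆GAG-BG (unadjusted p = 0.00413, adjusted p = 0.999 by edgeR). Against control vector S534A was then at -0.30 (unadjusted p = 0.0239, adjusted p = 1 by edgeR). Leaving out the highest value lowers the S534A mean by itself, so these p-values are no test of a lower SULF2. Every fit without that library shares this limit for S534A. With S534A replicate 2 and ∆GAG-BG replicate 1 both left out, a choice made after seeing the data, the differences from ∆GAG-BG were -0.33 for S534A and -0.29 for S545A (unadjusted p = 0.00826 and 0.00876, adjusted p = 1 and 0.308 by edgeR). In that setting ∆GAG-BG and control vector differed by 0.026 (unadjusted p = 0.777). The remaining ∆GAG-BG libraries, replicates 2 and 3, were nearly alike (chi-square per degree of freedom 1.99), and their TGFBR3 goes against the label. The p-values without ∆GAG-BG replicate 1 may therefore rest on too small a spread. TGFBR3 was high in all 6 single-site libraries and goes against the labels of 4 of the others, and its part in the SULF2 differences was not tested.

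HS6ST2, which adds 6-O-sulfates, was at 22.3, 32.1 and 23.7 CPM in the S534A libraries. It was at 22.1, 19.9 and 19.9 CPM in S545A, 21.8, 22.9 and 23.7 CPM in ∆GAG-BG, and 21.8, 20.1 and 21.1 CPM in control vector. S534A lay above S545A and control vector without overlap, but by a margin of under 1 CPM for its replicate 1, and the distance came from replicate 2. The log2 difference was -0.34 for S545A against S534A (SE 0.128, 95% interval -0.61 to -0.059, unadjusted p = 0.0214, adjusted p = 0.702 by edgeR). It was 0.31 for S534A against control vector (SE 0.127, 95% interval 0.031 to 0.59, unadjusted p = 0.0322, adjusted p = 0.871 by edgeR). Both had an exact permutation p of 0.1, two-sided. Without S534A replicate 2 the differences were -0.15 and 0.12 (unadjusted p = 0.113 and 0.188), so neither passed the uncorrected threshold.

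HS6ST1, the less abundant 6-O-sulfotransferase, was the most variable of the 8 genes, with a ratio of highest to lowest library of 2.19. Its values were 12.2, 16.8 and 9.65 CPM in S534A, 11.2, 9.55 and 8.06 CPM in S545A, 8.07, 12.1 and 10.7 CPM in ∆GAG-BG and 12.2, 9.71 and 7.67 CPM in control vector. All groups overlapped. Over the alternatives, its log2 difference ranged from -0.59 to -0.19 in S545A against S534A, from -0.054 to 0.68 in S534A against ∆GAG-BG and from -0.62 to 0.25 in ∆GAG-BG against control vector. The values of 0.68 and -0.62 came without replicates 2 and 3 of ∆GAG-BG and control vector.

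GLCE, the C5-epimerase, was at 21.2, 21.3 and 19.7 CPM in S545A. It was at 21.3, 24.9 and 25.6 CPM in ∆GAG-BG, 24.7, 22.4 and 23.4 CPM in control vector, and 22.4, 19.9 and 23.4 CPM in S534A. The S545A libraries lay below those of control vector, with a log2 difference of -0.18 (SE 0.101, unadjusted p = 0.0958). They also lay below those of ∆GAG-BG (-0.21, SE 0.101, unadjusted p = 0.0634), although its replicate 1 was level with the highest S545A value, and the groups overlapped when scaled by library size alone. GLCE and SULF2 were thus the 2 members that did not overlap, both lower, in S545A against ∆GAG-BG and against control vector, where 2.43% and 4.09% of all genes did so in the lower direction and 5.05% and 8.82% in either. HS6ST2 was the 1 non-overlapping member in S545A against S534A (lower, as for 4.8% of all genes, and 10.1% in either direction) and in S534A against control vector (higher, as for 3.85%, and 7.65% in either direction). No member was without overlap in ∆GAG-BG against control vector (4.87% of all genes) or S534A against ∆GAG-BG (5.66%).

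HS2ST1, which sulfates iduronic acid at the 2-O position, was at 60.5, 51.0 and 47.9 CPM in S534A, 59.0, 44.3 and 46.6 CPM in S545A, 51.7, 50.4 and 50.6 CPM in ∆GAG-BG and 56.8, 51.2 and 50.9 CPM in control vector. Replicate 1 was the highest of its group in all 4 groups, a pattern shared by 3.91% of the genes tested. The group means lay between 49.9 and 53.1 CPM.

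**Figure D3:**
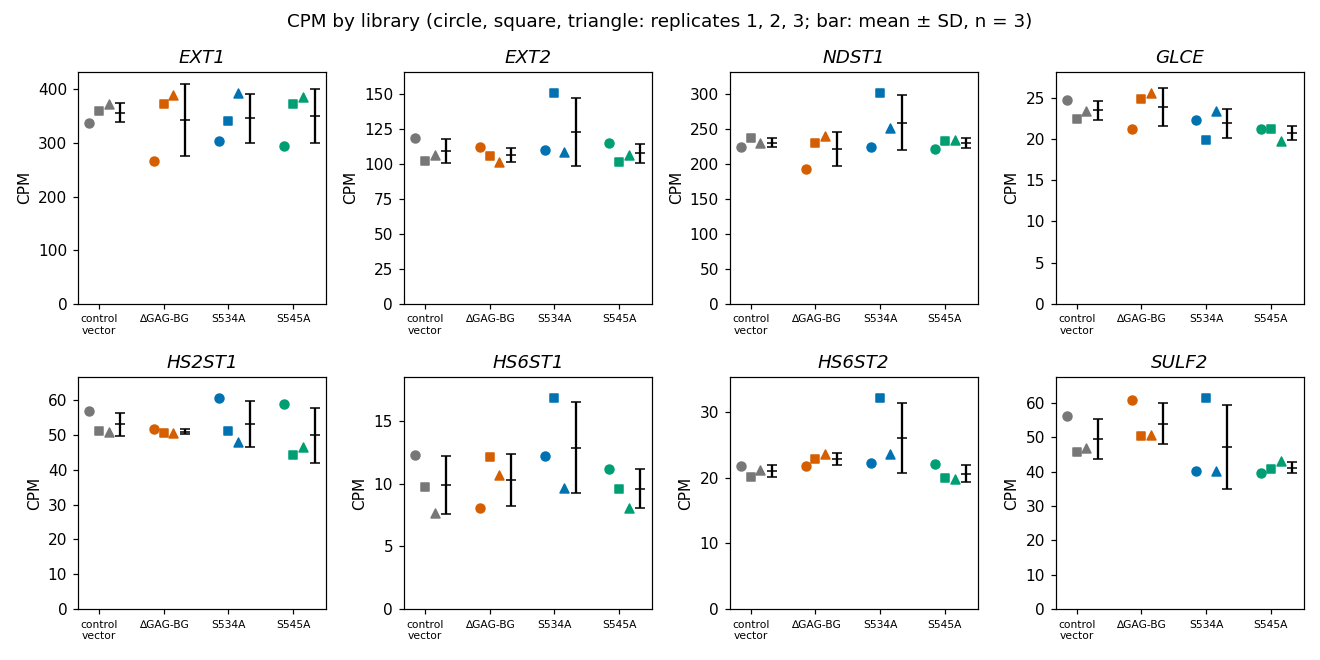
CPM of the 8 tested genes by group (y axes from 0), with a circle, square and triangle for replicates 1, 2 and 3 and bars for the mean ± SD of 3 libraries. S534A replicate 2 is the highest point for EXT2, NDST1, HS6ST1, HS6ST2 and SULF2, and the S545A points of SULF2 lie at 39.6 to 43.0 CPM, below all ∆GAG-BG and control vector points.

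EXT1, a subunit of the polymerase, was at 303, 341 and 393 CPM in S534A, 293, 373 and 386 CPM in S545A, 265, 373 and 390 CPM in ∆GAG-BG and 337, 359 and 372 CPM in control vector. Replicate 1 was the lowest of its group in all 4 groups, which held for NDST1 too and for 3.92% of the genes tested. The group means of EXT1 spanned 343 to 356 CPM, and the 95% intervals of its log2 differences from control vector were -0.39 to 0.28 for ∆GAG-BG, -0.38 to 0.29 for S534A and -0.36 to 0.31 for S545A. Differences inside these bounds could not be resolved with 3 libraries a group. EXT2, its partner in the complex, was at 110, 151 and 108 CPM in S534A, 115, 102 and 106 CPM in S545A, 112, 105 and 102 CPM in ∆GAG-BG and 118, 102 and 106 CPM in control vector. Apart from S534A replicate 2, the other 11 values lay between 102 and 118 CPM. NDST1, which carries out the N-sulfation that the later steps build on, was at 224, 301 and 251 CPM in S534A, 222, 233 and 234 CPM in S545A, 193, 229 and 239 CPM in ∆GAG-BG and 224, 237 and 230 CPM in control vector. Its highest value was in S534A replicate 2 and its lowest in ∆GAG-BG replicate 1, the libraries with the lowest and the highest HSPA5.

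S534A replicate 2 had the highest of 12 values for 5 of the 8 genes (EXT2, NDST1, HS6ST1, HS6ST2 and SULF2), as it did for 26.1% of all genes tested. Its log2 deviation from the mean of the 12 libraries was 0.66 for HS6ST1, 0.51 for HS6ST2, 0.44 for EXT2 and 0.37 for NDST1 and SULF2. GLCE at -0.17, HS2ST1 at -0.01 and EXT1 at -0.02 did not share this. NDST2 (8, 5 and 4 counts in S534A replicates 1, 2 and 3) and HS6ST3 (25, 20 and 18 counts) had too few counts for their order to be read. The part of the low HSPA5 of S534A replicate 2 in the values of the 8 genes was not tested.

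**Figure D4:**
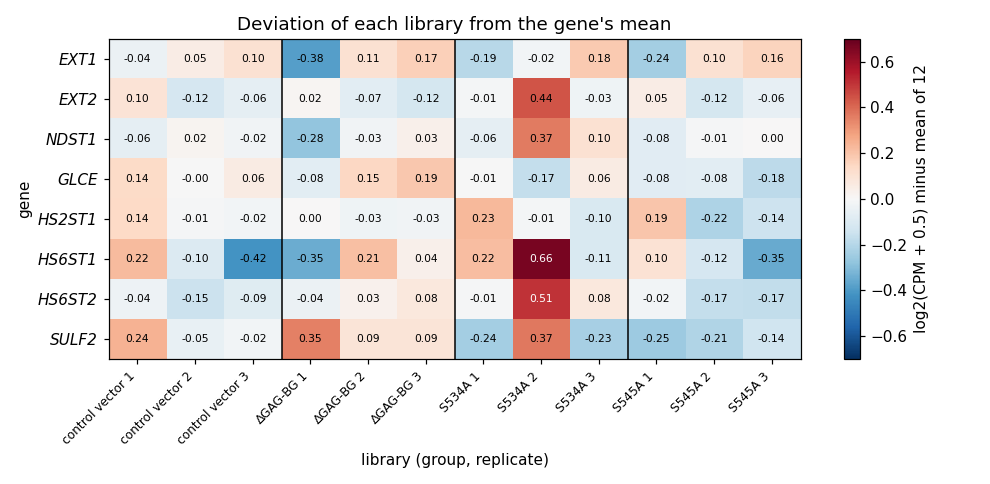
Deviation of each library from the gene's mean over the 12 libraries, as log2(CPM + 0.5), for the 8 tested genes (rows) and the 12 libraries (columns, by group and replicate), with red above and blue below the mean. The column of S534A replicate 2 holds the highest value of 5 of the genes, up to 0.66 for HS6ST1, and ∆GAG-BG replicate 1 is at -0.38 for EXT1, -0.28 for NDST1 and 0.35 for SULF2.

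The sign and median of the 8 log2 differences varied with the comparison. In ∆GAG-BG against control vector 4 were above and 4 below 0, with a median of -0.0055, beside 0.003 over all 16069 genes, of which 7840 were below 0. In S534A against control vector the median was 0.086 (5 above, 3 below), beside 0.0078, and in S534A against ∆GAG-BG 0.13 (6 above, 2 below), beside -0.0027. In S545A against ∆GAG-BG the median was -0.064 (3 above, 5 below), beside -0.0066, with 8458 of all genes below 0. In S545A against control vector all 8 were below 0, from -0.0061 for NDST1 to -0.27 for SULF2, with a median of -0.036 beside 0.00052, and 8017 of all genes were below 0. In S545A against S534A 7 of the 8 were below 0, with a median of -0.18 beside -0.00024 and 8040 of all genes below 0. The median size of the difference there, regardless of sign, was 0.184 for the 8 genes and 0.152 for all genes. S534A replicate 2, the highest library for 5 of the 8 genes, enters each comparison with S534A. Without it the 2 largest differences of S545A against S534A, HS6ST1 at -0.43 and HS6ST2 at -0.34, were -0.19 and -0.15. The signs of single genes were not stable, since 27 of the 48 differences (8 genes in 6 comparisons) changed sign under some alternative processing or when a library was left out. Among them were differences near 0, such as -0.0061 for NDST1 in S545A against control vector. The share over all genes is not given here, so the count is no trait of these 8 genes.

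Of 38 other genes of the pathway, 28 passed the filter on low counts and none passed an adjusted p of 0.05 in any comparison. The chain starters EXTL2 and EXTL3, which begin or regulate chain synthesis, were at 36.4 to 54.1 and 75.3 to 108 CPM. The xylosyltransferase XYLT2, which places the first sugar of the linker, was at 49.1 to 70.2 CPM, whereas XYLT1 had at most 1 count. Among the 7 3-O-sulfotransferase genes, 5 (HS3ST2, HS3ST3A1, HS3ST3B1, HS3ST4 and HS3ST6) had 0 counts in all 12 libraries, while HS3ST5 was at 0.968 to 5.71 CPM and HS3ST1 at 0.934 to 2.73 CPM. The heparanase gene HPSE, whose product cuts the chain, was at 3.9 to 7.64 CPM. The sulfate donor synthase PAPSS2 was at 95.4 to 134 CPM and the sulfate transporter SLC26A2 at 84.6 to 115 CPM. At an unadjusted p of 0.05, the linker glucuronosyltransferase B3GAT3 (log2 difference 0.44, unadjusted p = 0.0148) and SLC26A2 (0.20, unadjusted p = 0.035) were higher in S534A than in control vector. The nucleotide-sugar transporter SLC35D1 was higher in S534A than in ∆GAG-BG (0.31, unadjusted p = 0.0316) and lower in S545A than in S534A (-0.28, unadjusted p = 0.0489), and by edgeR each had an adjusted p of 0.702 or above. B3GAT3 was at 20.8, 32.5 and 21.4 CPM in S534A and 17.8, 20.4 and 16.9 CPM in control vector. Without S534A replicate 2 none of these 4 differences passed the threshold, with B3GAT3 at 0.20, SLC26A2 at 0.19 and SLC35D1 at 0.20 and -0.16. No other pathway gene passed that threshold in any of the 6 comparisons.

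The genes that varied most like the 3 most variable members were found by Pearson correlation of log2 CPM over the 12 libraries, which share group, depth and the library that stood apart. For HS6ST1 they were PITX1 (r = 0.969, Spearman's rho = 0.951), HAUS2 (0.963 and 0.944) and MFAP1 (0.959 and 0.958). Without the 2 libraries farthest from the HS6ST1 median, S534A replicate 2 and control vector replicate 3, r was 0.985, 0.964 and 0.938. For HS6ST2 they were PSME2 (r = 0.977), SUSD5 (0.961) and C11orf58 (0.943), and r was 0.872, 0.816 and 0.64 without S534A replicate 2 and S545A replicate 3. For NDST1 they were C4orf3 (r = 0.967), MYD88 (0.958) and CNTNAP1 (0.955), with 0.655, 0.803 and 0.718 without S534A replicate 2 and ∆GAG-BG replicate 1. The genes were picked for a high r over these same libraries, so the values describe them and are no check of the likeness.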

How the data were processed

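Total RNA from 12 HEYA8 samples in 4 groups of 3 was sequenced by the authors as paired-end reads from a directional kit. The submitters' processing notes name FastQC, Trim Galore 0.4.5, STAR 2.4, SAMtools 1.2 and featureCounts. They also name a mouse build, whereas the deposited table lists human genes, of which 33647 of the 36113 symbols found in GENCODE 29 (GRCh38) had the same coordinates and strand. The strand setting and annotation release are not given in the sources used here. The deposited values are raw counts per gene with exon lengths, 56269 genes.

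Counts were scaled by TMM to CPM and, between genes only, to RPKM. Genes were kept by filterByExpr with a minimum count of 10, which left 16069. The 4 groups were fitted in 1 model with 8 residual degrees of freedom by edgeR 4.0.16 (R 4.3.3, robust quasi-likelihood, two-sided, common biological coefficient of variation 0.163), with Benjamini-Hochberg adjustment over all genes tested. The method was tested on simulated data. DESeq2 1.42.0, limma-voom 3.58.1, other scalings and filters, a replicate block and omitted libraries were alternatives. Members, gene lists and motifs were chosen with earlier results of these data known. All 10 members were named. Fold changes with errors were given for members at an unadjusted p under 0.05, with those of GLCE, HS6ST1, EXT1 and further SULF2 comparisons added after their values were seen, and up to 3 other pathway genes per comparison by smallest p. Groups followed the genotype labels. The depth behind each value was its library's total count, and floors and intervals of counts cover counting error only. Same-numbered libraries of S545A and control vector deviated together from their group means (r = 0.688, 0.411 and 0.408 over genes). In the other 5 comparisons at least 1 same-numbered pair had an r below 0.1. Replicates 2 and 3 were nearly alike within S545A and within control vector (chi-square per degree of freedom 1.4 and 1.44). The 3 correlations are therefore not separate and cannot show pairing. The main fit and the permutation test took the libraries as unpaired, and the replicate block was an alternative.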

Additional observations from a re-analysis of the deposited data

How the results depend on the processing

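The count of members at an adjusted p under 0.05 was 0 in each of the 6 comparisons and in the 4-group test under every alternative run (DESeq2, RLE factors, library size alone, no filter, a floor of 10 counts per library, limma-voom, the replicate block, only the 2 groups compared, libraries left out, and replicates 2 and 3 summed), and the smallest adjusted p of a member was 0.244. Left-out libraries gave 0 in each case. With the replicate block, SULF2 was -0.38 in S545A against ∆GAG-BG (unadjusted p = 0.0419) and HS6ST2 was -0.33 and 0.30 in S545A against S534A and S534A against control vector (unadjusted p = 0.0332 and unadjusted p = 0.0476), and NDST1 passed the uncorrected threshold in S534A against ∆GAG-BG (0.23, unadjusted p = 0.0319, beside 0.0626 without the block). No adjusted call changed. Over all genes, the count at an adjusted p under 0.05 was 0 in the 6 comparisons as reported. Without a filter edgeR called 1 gene in each of the 3 comparisons that pair S534A with another group, limma-voom did too, and DESeq2 gave 5 for S534A against ∆GAG-BG, 2 for S534A against control vector and 1 between the single-site mutants. Leaving out replicates 2 and 3 of ∆GAG-BG and control vector, whose TGFBR3 goes against the labels, gave SULF2 at -0.56 in S545A against ∆GAG-BG. Each of these groups then holds 1 library, which is assumed to vary like the other groups. No p-value or count over all genes is therefore given for that setting. Summing replicates 2 and 3 gave SULF2 -0.44 (unadjusted p = 0.0773). With only the 2 groups in the fit, HS6ST2 stayed at -0.34 between S545A and S534A (unadjusted p = 0.0641) and at 0.30 between S534A and control vector (unadjusted p = 0.0815). SULF2 was then -0.27 in S545A against control vector (unadjusted p = 0.0232), where 2 members were under 0.05. It was -0.39 in S545A against ∆GAG-BG (unadjusted p = 0.00491). Without a filter these SULF2 comparisons gave an unadjusted p = 0.0487 and 0.00825. In S534A against ∆GAG-BG, 1 member passed the uncorrected threshold without a filter, and 0 to 2 did when 1 library was left out. The share of all genes at that threshold under the alternatives is not given here. There were 3 libraries a group, and the largest difference in the main fit had a size of 0.43. Under the alternatives the largest was 0.68, for HS6ST1 in S534A against ∆GAG-BG. SULF1 lay below the count floor, most of the NDST2 exon length is shared with another gene, and the 8 tested genes varied between replicates. Why the counts of SULF1 and NDST2 were low was not tested.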

Other observations

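Among genes that break heparan sulfate down in the lysosome, all 8 passed the filter on low counts. IDUA, the iduronidase, was at 10.8 CPM in S534A replicate 2, against 2.25 to 6.44 CPM in the other 11 libraries, and HGSNAT, the acetyltransferase, was at 33.9 CPM there, against 15.6 to 20.2 CPM elsewhere. SGSH, the N-sulfatase, and ARSG, a 3-O-sulfatase, were high in both libraries whose HSPA5 stood apart, with 27.4 and 28.2 CPM of SGSH in S534A replicate 2 and ∆GAG-BG replicate 1 (14.6 to 19.8 CPM elsewhere) and 18.4 and 19.6 CPM of ARSG (7.78 to 14.4 CPM elsewhere). UGDH, which makes the glucuronic acid donor, was at 64.2 CPM in ∆GAG-BG replicate 1 and at 27.9 CPM in S534A replicate 2, with 32.5 to 40.8 CPM in the other 10. HS3ST5 was at 0.968 to 2.52 CPM in replicate 1 of each group and in S534A replicate 2, and at 4.43 to 5.71 CPM in the other 7 libraries. None of these genes passed an adjusted p of 0.05 between groups by edgeR, and no cause was tested.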
